A study of Mus musculus with 10 samples.

Results

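Metal ion transporters and metallothioneins move and hold zinc, iron, copper, manganese and magnesium in cells. They are represented here by 61 probe sets of 36 genes, out of 45137 probe sets that are not array controls. Members were taken by name: every probe set annotated to exactly 1 gene symbol of the solute carrier families 11, 30, 31, 39, 40 and 41, or to Mt1, Mt2, Mt3 or Mt4. This group of families was itself chosen with earlier results of these data known. The array type MOE430A carried 44 of these probe sets (30 genes) and MOE430B carried 17 (12 genes), with 6 genes on both. All 61 gene identifiers led to the same symbol in the RefSeq gene table.

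The samples were mouse embryos at E5.5 from matings of B6SJLF1 with CerlP-GFP mice, a transgenic line in which a Cerl (Cer1) promoter drives green fluorescent protein in the anterior visceral endoderm. All groups share this background and received no treatment. Ad is an anterior distal fragment with the fluorescent cells of the anterior visceral endoderm plus epiblast under them, and Pp is a posterior proximal fragment of visceral endoderm and epiblast from the other side, cut below the extraembryonic boundary. The whole embryo is the remaining kind of sample. Each array type was hybridised with 2 samples of Ad, 2 of Pp and 1 of the whole embryo. Ad and Pp replicates are numbered 1 and 2 on MOE430A and 3 and 4 on MOE430B. The labels do not give the number of embryos behind an array or state that replicates came from separate embryos, so each p-value rests on the spread among these samples alone, and their small number limits the precision. The series set out to find genes higher in Ad.

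Zinc enters the cytosol through Slc39 (ZIP) proteins and leaves it, to the outside or into organelles, through Slc30 (ZnT) proteins. Metallothioneins are small cysteine-rich proteins that bind zinc and copper, and the zinc-sensing factor Mtf1 turns on Mt1, Mt2 and Slc30a1 through metal response elements. Visceral endoderm is the nutritive epithelium of the early embryo and is known for strong metallothionein expression and for Slc39a4, Slc39a5 and the iron exporter Slc40a1.

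Signal is the probe set intensity deposited by the authors, in arbitrary units, and it is compared between samples for 1 probe set at a time. A probe set counted as measured when its mean log2 value over the 5 arrays of its type lay above the 40th percentile. That filter signal was 464 for MOE430A and 37.2 for MOE430B. On MOE430A 34 of 44 member probe sets (26 genes) were measured, and on MOE430B 9 of 17 (8 genes). The other 18 probe sets are described by their levels near the end. Log2 differences come from limma fits over all 13575 and 13506 measured probe sets and contain a pseudocount, which draws them towards 0. A call means a Benjamini-Hochberg adjusted p under 0.05 over all measured probe sets of that array type.

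The dissected tissue was checked by its own markers. The summed signal of 8 anterior visceral endoderm markers on MOE430A was 19336 to 23756 in Ad and 6911 to 7566 in Pp. By the brightest probe set of each gene 8 of 8 were higher in Ad, 4 of them with a call. For Cer1 that probe set had no call (adjusted p = 0.0864, limma). The other Cer1 probe set was called, at 3681 and 3670 in Ad and 283 and 288 in Pp (adjusted p = 0.00019). The 15 general visceral endoderm markers summed to 81260 to 92036 in Ad and 74230 to 86945 in Pp, with 0 calls. The 8 markers of extraembryonic ectoderm summed to 14858 in Pp replicate 2, against 8744 in Pp replicate 1 and 8903 to 9274 in Ad. The 9 measured markers of decidua and uterus, the maternal tissue around the embryo, summed to 7081 to 7918 in the fragments. Their sum was 23780.0 in the whole embryo. Of the 9, 3 (Prl8a2, Hoxa10 and Wnt4) passed the filter only through the whole embryo, so the filter in part fixes this gap. Ad replicate 2 stood apart in hormone genes of the decidua: Prl3c1, which was below the filter, was at 812 there and at 86.9 to 96.9 in the other fragments, and Prl8a2 was at 564 there and at 241 to 267 in the others.

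The promoters of 4 genes are shown because 3 of them, Mt1, Mt2 and Slc30a1, are the textbook Mtf1 targets of this group, and the last, Slc39a2, is the member with a call between Ad and Pp. They are RefSeq sequences of GRCm38.p6, all on the plus strand: Mt1 at chr8:94178839-94179138, Mt2 at chr8:94172368-94172667, Slc30a1 at chr1:191906531-191906830 and Slc39a2 at chr14:51893360-51893659. Capitals mark matches to the metal response element core, searched on both strands as TGCACNC or TGCGCNC.
Mt1: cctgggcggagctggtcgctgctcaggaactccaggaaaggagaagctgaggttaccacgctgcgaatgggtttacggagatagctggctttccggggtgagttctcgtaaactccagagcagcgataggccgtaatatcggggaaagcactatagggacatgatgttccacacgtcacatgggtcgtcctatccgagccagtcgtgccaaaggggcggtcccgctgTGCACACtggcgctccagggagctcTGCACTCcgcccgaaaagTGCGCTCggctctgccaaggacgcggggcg
Mt2: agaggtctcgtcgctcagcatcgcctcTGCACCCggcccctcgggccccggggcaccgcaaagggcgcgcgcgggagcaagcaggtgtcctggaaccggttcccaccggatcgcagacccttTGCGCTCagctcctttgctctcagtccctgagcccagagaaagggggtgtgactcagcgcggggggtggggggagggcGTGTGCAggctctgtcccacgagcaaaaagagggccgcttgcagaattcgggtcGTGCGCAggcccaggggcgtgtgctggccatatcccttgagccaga
Slc30a1: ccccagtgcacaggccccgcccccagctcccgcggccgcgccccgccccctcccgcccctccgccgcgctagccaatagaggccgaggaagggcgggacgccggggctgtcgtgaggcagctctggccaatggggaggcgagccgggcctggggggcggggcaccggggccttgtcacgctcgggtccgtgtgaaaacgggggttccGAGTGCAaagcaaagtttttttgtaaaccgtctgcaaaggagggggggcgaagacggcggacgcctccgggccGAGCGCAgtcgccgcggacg
Slc39a2: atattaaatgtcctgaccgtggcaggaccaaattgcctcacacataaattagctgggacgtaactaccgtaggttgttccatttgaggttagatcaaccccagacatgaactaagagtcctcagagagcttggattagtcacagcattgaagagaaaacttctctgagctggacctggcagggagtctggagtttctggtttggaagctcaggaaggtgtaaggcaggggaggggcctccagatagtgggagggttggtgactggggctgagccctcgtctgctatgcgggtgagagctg
The Mt1 window held 3 matches, the Mt2 window 4, the Slc30a1 window 2 and the Slc39a2 window 0, with no overlap between matches. Of all 32851 promoter windows of this length in the table, 25.7% held at least 1 match, 7.11% at least 2, 1.97% at least 3 and 0.517% at least 4. Windows were available for 30 of the 36 member genes. Of their 35 windows 20 held at least 1 match. A match is a run of letters, not a binding site shown here, and a window without one says nothing about Mtf1.

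The zinc importer gene Slc39a2 was higher in Ad than in Pp, the 1 member with a call in this comparison. Slc39a2 encodes a plasma membrane ZIP protein that takes up zinc. Its signal on MOE430B was 342 and 366 in the Ad arrays, against 87.2 and 119 in the Pp arrays, and 118 in the whole embryo. The Ad arrays lay well above the Pp arrays without overlap, and the whole embryo lay within the Pp range. The averages were 354 ± 16.4 in Ad and 103 ± 22.5 in Pp (SD, n = 2 each). With the pseudocount the difference was 3.07-fold (log2 difference 1.62 ± 0.17, SE, adjusted p = 0.0428, limma). Leaving out Ad replicate 3 ended the call (adjusted p = 0.419), as did leaving out Ad replicate 4 (0.622); in both settings limma called 0 of all measured probe sets. The call also ended on dropping the filter (0.295), dropping the pseudocount (0.0778) or using quantile normalization (0.0569). The log2 difference itself lay between 1.42 and 1.79 over all settings. This was 1 call among 9 measured members, with 0.111% of all measured probe sets called on MOE430B. In dissected tissue, a difference in the number of cells of a type and a difference in RNA per cell cannot be told apart. The single anterior marker measured on MOE430B, Dkk1, was at 631 and 272 in Ad and at 98.2 and 198 in Pp, and its part in the Slc39a2 difference was not tested.

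**Figure D1:**
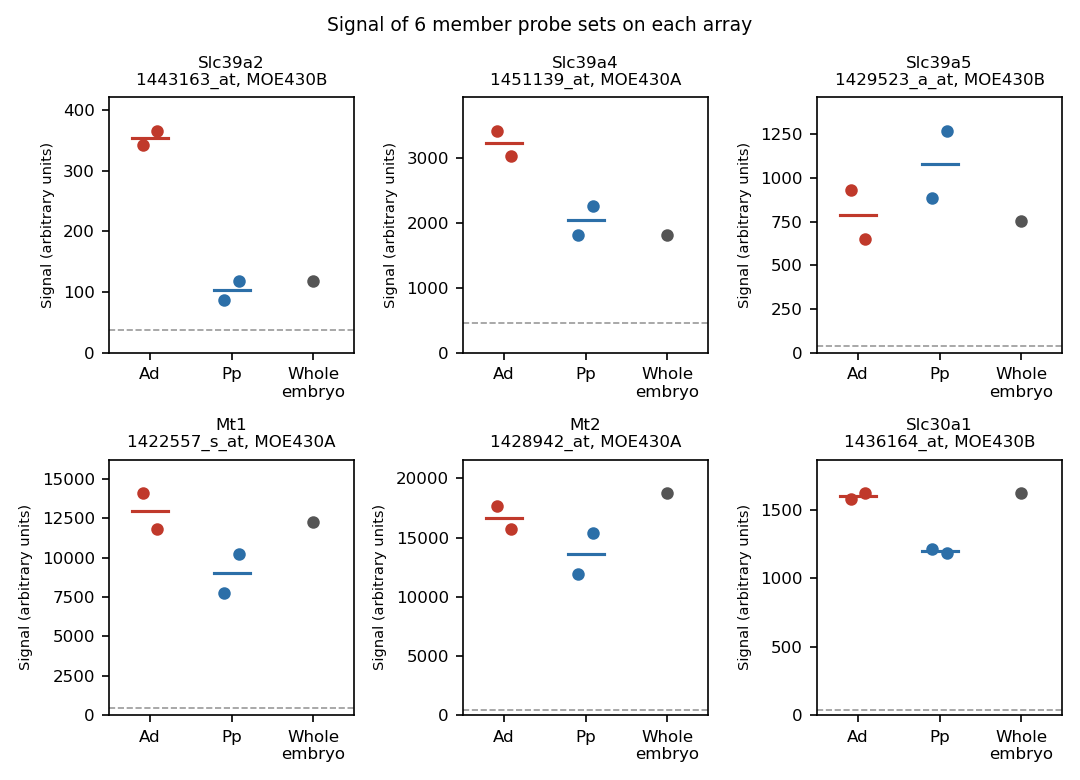
Signal in arbitrary units of 6 member probe sets, with a point for each array in Ad, Pp and the whole embryo, a bar at the mean of each pair and a dashed line at the filter signal (464 on MOE430A, 37.2 on MOE430B). Slc39a2 was at 342 and 366 in Ad and at most 119 elsewhere, while Mt1, Mt2 and Slc39a4 had smaller gaps between Ad and Pp and Slc39a5 overlapped.

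Among the other zinc importers, Slc39a4 had the largest log2 difference of any member on MOE430A. It encodes the zinc importer ZIP4, which is known to be required in mouse embryos soon after implantation. Slc39a4 was at 3420.1 and 3029 in Ad and at 1821 and 2260.0 in Pp, with 1808 in the whole embryo. The Ad arrays were the highest and did not overlap the Pp arrays, but the gene did not pass (log2 difference 0.54 ± 0.11, SE; adjusted p = 0.230, limma). Whether Slc39a4 passed depended on the arrays kept. A fit without either Pp array leaves 1 array in that group, so its p-values are not given.

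Slc39a8, an importer of zinc, iron and manganese, was at 908 and 953 in Ad and 718 and 819 in Pp (log2 difference 0.15, adjusted p = 0.529). Slc39a7, which releases zinc from the endoplasmic reticulum, was at 3547 and 3590.3 in Ad and 3818 and 4169 in Pp (-0.22, adjusted p = 0.383). Slc39a1, a zinc importer of the plasma membrane, was at 2867 and 2872 in Ad and 3319 and 3009.6 in Pp (-0.20, adjusted p = 0.396). In these 3 genes the arrays of Ad and Pp did not overlap, yet the differences were small and none passed. Over the 12 measured Slc39 probe sets on MOE430A, 4 log2 differences were positive and 8 negative, with a median of -0.04. Slc39a3, Slc39a11 and Slc39a13, further members of the zinc importer family, gave 0.11, -0.04 and -0.02 by their brightest probe sets, and Slc39a9 gave -0.14.

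On MOE430B the remaining Slc39 differences all pointed to Pp, and 0 of those 4 probe sets passed. Slc39a5, a zinc importer of the basolateral membrane known from visceral endoderm, was at 932 and 649 in Ad and 886 and 1272 in Pp (log2 difference -0.52 ± 0.24, SE; adjusted p = 0.514). Its arrays overlapped. Slc39a10, another zinc importer, was at 1941 and 2104 in Ad and 2315 and 2097 in Pp by the first of its probe sets (-0.20, adjusted p = 0.666). The second was at 331 and 349 in Ad and 572 and 428 in Pp (-0.60, adjusted p = 0.423), without overlap. Slc39a14, an importer of zinc, iron and manganese, was low on MOE430B, at 39.4 and 30.3 in Ad and 47.4 and 53.1 in Pp (adjusted p = 0.423). With an average of 34.8 in Ad, under the filter signal, it was kept through Pp.

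The metallothioneins Mt1 and Mt2 stood above the filter signal on every MOE430A array. Mt1 was at 14108 and 11809 in Ad, against 7749 and 10256 in Pp, with 12269.8 in the whole embryo. Mt2 was at 17686 and 15701 in Ad, against 11894 and 15409 in Pp, with 18772 in the whole embryo. Both genes had the 4 fragment arrays in the same order, highest in Ad replicate 1 and lowest in Pp replicate 1, and neither pair overlapped. The spread within Pp was wide, and neither gene passed (Mt1 log2 difference 0.45 ± 0.15, adjusted p = 0.370; Mt2 0.23 ± 0.14, adjusted p = 0.556; SE). Without Pp replicate 2, which leaves 1 array in that group, the differences were 0.66 for Mt1 and 0.42 for Mt2. This is the array with the higher extraembryonic ectoderm sum, whose part was not tested. Without Pp replicate 1 the differences were 0.25 for Mt1 and 0.036 for Mt2. The _s_at suffix of the Mt1 probe set marks probes shared by more than 1 transcript, so its signal may not be Mt1 alone. The other Mt1 probe set lay below the filter, at 276 and 249 in Ad and 260.03 and 262 in Pp. These overlapped, and its log2 difference was -0.036 when the filter was dropped. Mt3, a metallothionein best known from brain, was at 992 and 906 in Ad and 939 and 916 in Pp, which overlapped (-0.04, adjusted p = 0.821).

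Zinc exporters showed 0 calls between Ad and Pp on both array types. Slc30a1, the plasma membrane exporter that shares Mtf1 control with Mt1 and Mt2, was measured by a different probe set on each. On MOE430B it was at 1577 and 1623 in Ad and 1217 and 1181 in Pp, without overlap (log2 difference 0.34 ± 0.14, SE; adjusted p = 0.475). On MOE430A it was at 1627 and 1469.6 in Ad and 1447 and 1558 in Pp, which overlapped (-0.03, adjusted p = 0.885). The arrays of the 2 types carry different replicate numbers, so these values may come from different samples as well as from different probes. Slc30a7, which loads zinc into the early secretory pathway, was at 384 and 379.8 in Ad and 452 and 402 in Pp on MOE430B (-0.23, adjusted p = 0.632), while its MOE430A probe set gave 0.02. Slc30a5, of the same pathway, was at 1330.3 and 1399.8 in Ad and 1534 and 1354 in Pp (-0.14, adjusted p = 0.546). Slc30a10, a manganese exporter, was just above the filter at 51.1 and 42.8 in Ad and 47.5 and 43.5 in Pp (adjusted p = 0.945). Slc30a3, the exporter of synaptic vesicles, gave -0.02, Slc30a9 gave -0.03, and Slc30a2 and Slc30a6 gave 0.0039 and 0.10.

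Iron, copper and magnesium transporters lay near 0 between Ad and Pp, with 0 calls. Slc40a1 (ferroportin, the iron exporter) was at 3081 and 2450.0 in Ad and 2696 and 2198 in Pp, which overlapped (log2 difference 0.09, adjusted p = 0.801). Its other probe set gave 0.03. The 3 measured probe sets of Slc11a2 (DMT1, the importer of ferrous iron) gave -0.10 to 0.03. Slc31a1 (CTR1, the main copper importer) was at 1147 and 927 in Ad and 898 and 839 in Pp (0.13, adjusted p = 0.617), and its other probe set gave 0.07. Slc31a2, a related copper transporter of endosomes, was at 1238 and 1305 in Ad and 1526 and 1353 in Pp (-0.22, adjusted p = 0.391), with -0.10 by its other probe set. Slc41a1, a magnesium transporter, gave -0.16 (adjusted p = 0.515) on MOE430A and -0.00021 (adjusted p = 0.9996) on MOE430B, where its signal was 57.7 and 62.7 in Ad and 41.02 and 76.8 in Pp.

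Counted together, 0 of 34 measured members passed between Ad and Pp on MOE430A, where 0.169% of all measured probe sets passed, and 5 had an unadjusted p under 0.05, beside 11.7% of all. Of these 34, 32 had a log2 difference within 0.25 of 0, beside 92.4% of all measured probe sets; the exceptions were Slc39a4 and Mt1. The members' median was -0.03, and that of all probe sets was -0.03. Ad and Pp signals did not overlap for 15 of 34 members on MOE430A, beside 44.6% of all, and for 5 of 9 on MOE430B, beside 43.4%. On MOE430B 4 of 9 members, the low Slc39a14 probe set among them, had an unadjusted p under 0.05, beside 10.4% of all. There the members' median was -0.20 and that of all probe sets -0.01.

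**Figure D2:**
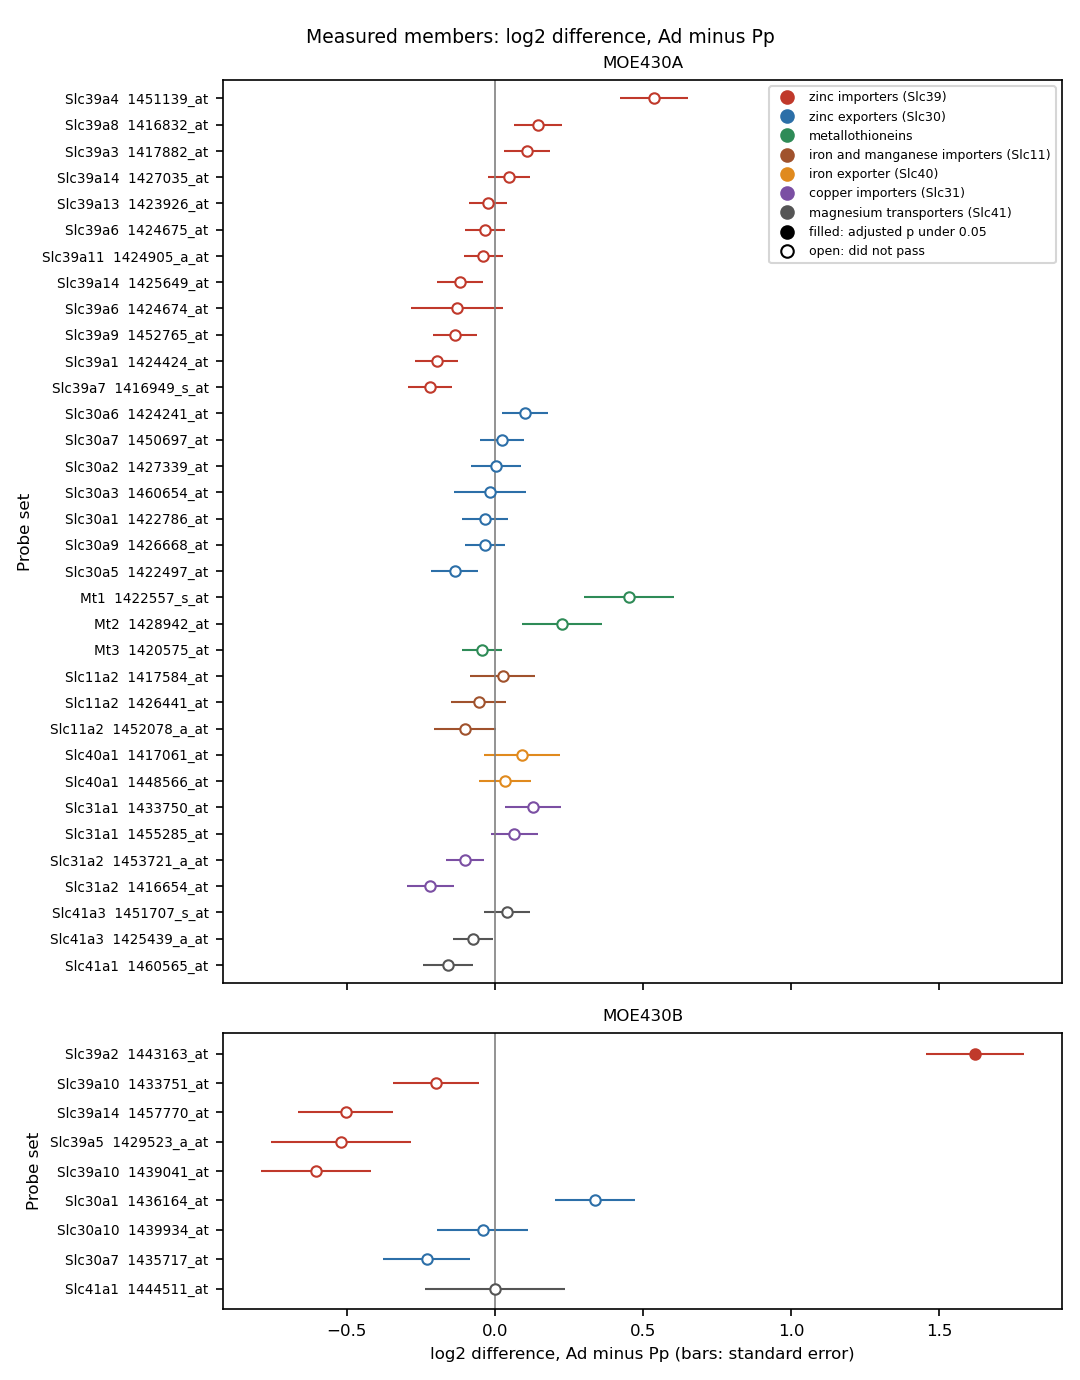
Log2 difference between Ad and Pp (horizontal axis, bars are standard errors) for the 34 measured member probe sets of MOE430A and the 9 of MOE430B, coloured by family and filled where the adjusted p was under 0.05. Slc39a2 at 1.62 is the filled point, and 32 of the 34 points on MOE430A lie within 0.25 of 0.

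Per the series' design text the whole embryo served normalization; it is set here against the 4 fragment arrays together. On MOE430A 5 of 34 measured member probe sets were called lower in the fragments, where 5.18% of all measured probe sets were lower, and 0 were called higher; 9.78% of all were called in either direction. These 5 belong to Slc39a6, Slc39a14, Slc30a2, Slc39a9 and Slc39a1. Most decidua and uterus markers moved the same way: 6 of 9 measured were called lower in the fragments. The other 3, Des, Esr1 and Pgr, were positive by their brightest probe sets (0.12, 0.15 and 0.06) without a call. A further probe set of each, on MOE430A for Des and on MOE430B for Esr1 and Pgr, was called lower. Of the 6 called markers, 3 (Prl8a2, Hoxa10 and Wnt4) had fragment means below the filter signal and were kept through the whole embryo. The filter thus in part fixes that count. Prl8a2 was at 241 to 564 in the fragments, against 6063 in the whole embryo. The extraembryonic ectoderm markers summed to 8744 to 14858 in the fragments, against 16919 in the whole embryo, which still holds that tissue, and 2 markers of the ectoplacental cone and giant cells to 3149.6 to 3269 in the fragments, against 5132 in the whole embryo. The part of these tissues in the differences was not tested. With 1 whole-embryo array, its spread was taken to be that of the fragments.

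Slc39a6 (LIV-1), a zinc importer linked to cell migration in zebrafish, had the largest of these differences. It was at 391 and 591 in Ad and 454 and 582 in Pp, against 1396 in the whole embryo. The average over the fragments was 504 ± 98.1 (SD, n = 4). With the pseudocount, which draws the ratio towards 1, the fragments were 2.08-fold lower (adjusted p = 0.0216, limma). The other measured Slc39a6 probe set was at 619.7 to 681 in the fragments, against 682 in the whole embryo (log2 difference 0.01, adjusted p = 0.934). This second probe set thus showed almost no difference (SE 0.08), with every fragment array just below the whole embryo before centring. Only the first passed.

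Slc39a14 was at 655 and 691 in Ad and 588 and 616 in Pp, against 1179 in the whole embryo (1.53-fold lower, adjusted p = 0.0106). Its other measured probe set on this array type was at 805 to 931 in the fragments, against 1083 in the whole embryo, and did not pass (log2 difference -0.15, adjusted p = 0.310), and its MOE430B probe set gave 0.17. Slc30a2, which loads zinc into secretory vesicles, was at 722 and 604 in Ad and 593 and 639.8 in Pp, against 1120.0 in the whole embryo (1.46-fold lower, adjusted p = 0.0257). In both MOE430A probe sets of Slc39a14 and in Slc30a2 every fragment array lay below the whole embryo. The same held for 16 of 34 measured members on MOE430A, and the share over all probe sets was not taken. The MOE430B probe set of Slc39a14 had fragments on either side of the whole embryo.

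Slc39a9, a zinc transporter of the Golgi, was at 513 and 447 in Ad and 531 and 498 in Pp, against 773 in the whole embryo (1.30-fold lower, adjusted p = 0.0454). Its 2 other probe sets were below the filter and differed little. They were at 414 to 472 in the fragments, against 495 in the whole embryo, and at 168 to 204, against 201. Slc39a1 was at 2867 and 2872 in Ad and 3319 and 3009.6 in Pp, against 4195 in the whole embryo (1.29-fold lower in the fragments, adjusted p = 0.0469). Of the 5 calls, 0 were left without Ad replicate 1 and 1 without Ad replicate 2 (Slc39a6), settings that called 2.22% and 2.02% of all measured probe sets. Without Pp replicate 1, 9 of 34 members passed, beside 22.8% of all, and without Pp replicate 2, 10 passed, beside 25.7%. Slc39a1 lost its call with an intensity trend (0.0660), with no pseudocount (0.0685) and under quantile normalization (0.0604), and Slc39a9 with the larger pseudocount (0.0548).

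**Figure D3:**
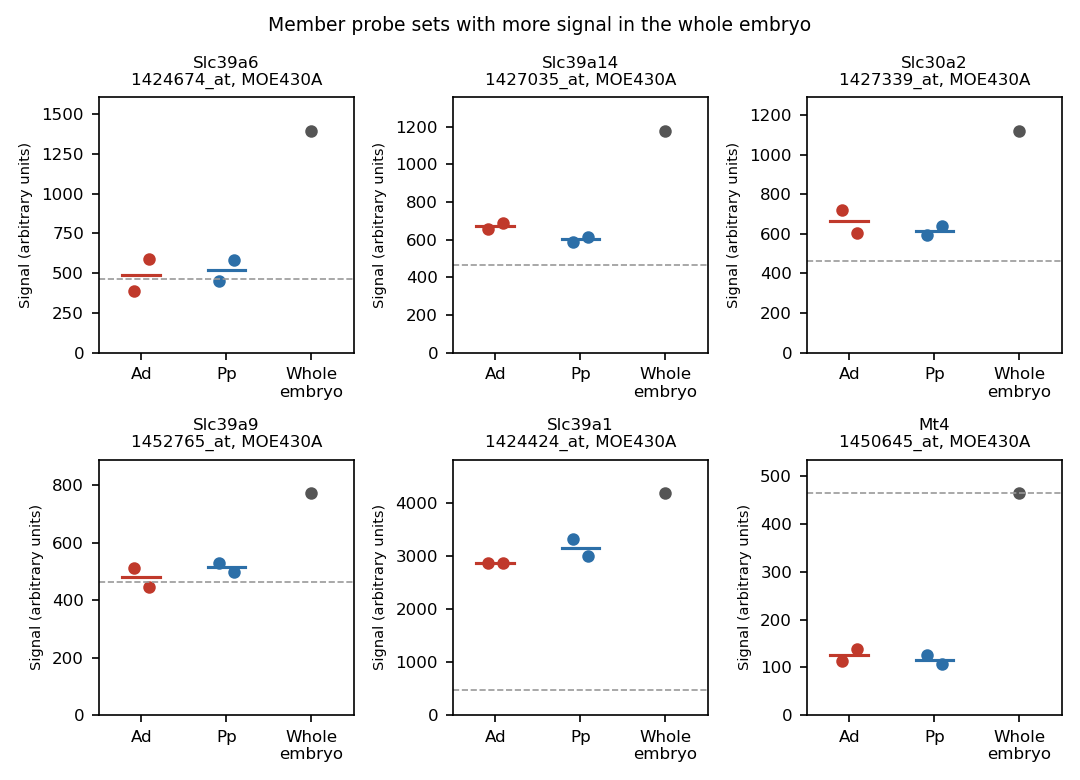
Signal in arbitrary units of the 5 member probe sets called lower in the fragments than in the whole embryo, and of Mt4, which was below the filter; points are arrays, bars are means of pairs and the dashed line is the filter signal of 464. The whole embryo is the highest point in every panel, at 1396 for Slc39a6 and 465 for Mt4.

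Some zinc and iron transporters had positive differences without a call. Markers of epiblast ran the same way, while markers of visceral endoderm were mixed. Of 15 visceral endoderm markers 10 were positive and 3 called higher in the fragments (sums of 74230 to 92036 in the fragments, against 73681 in the whole embryo). The other 5 were negative, from -0.0038 for Amn to -0.62 for Sox17. Of 6 epiblast markers 6 were positive and 4 called higher (32633 to 35770.2 in the fragments, against 25653 in the whole embryo). Their part in these differences was not tested. Slc39a4 had a log2 difference of 0.53 ± 0.13 (SE) between the fragments and the whole embryo (adjusted p = 0.0586), and its Pp arrays, at 1821 and 2260.0, were close to the whole embryo at 1808. Slc30a6, of the early secretory pathway, was at 1705 and 1637 in Ad and 1379 and 1537 in Pp, against 1225 in the whole embryo (0.38, adjusted p = 0.0518). Slc40a1 gave 0.43 (adjusted p = 0.126), and Slc39a8, at 682 in the whole embryo, gave 0.31 (adjusted p = 0.0898). Slc31a2 gave 0.12 (adjusted p = 0.415). Over the 34 measured members on MOE430A, 6 probe sets had every fragment array above the whole embryo and 16 had every one below it. Slc39a4, Slc39a8, Slc30a6 and Slc40a1 were among the 6, and the share over all probe sets was not taken. Whether these 4 genes passed depended on the arrays kept, and the number of calls over all probe sets changed with the array left out. A fit without either Pp array leaves 1 array in that group, so its p-values are not given for any member. The p-values without an Ad array, given for Slc39a2 to show that its call ended, carry the same limit.

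The metallothioneins did not pass against the whole embryo in limma: Mt1 gave -0.11 (adjusted p = 0.717), Mt2 -0.24 (adjusted p = 0.365) and Mt3 0.08 (adjusted p = 0.561). Slc30a1 gave -0.01 (adjusted p = 0.935) on MOE430A. The Slc11a2 probe sets gave -0.08 to 0.14, the Slc31a1 probe sets 0.0070 and 0.06, and Slc41a1 -0.13 (adjusted p = 0.441). The median over the 34 members was -0.0031 and that over all measured probe sets 0.05.

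On MOE430B 0 of 9 measured members passed between the fragments and the whole embryo in limma, with 2.21% of all measured probe sets called and 1.81% called lower. An unadjusted p under 0.05 was found for 3 members, beside 16.4% of all. All 5 Slc39 probe sets, of 4 genes, were positive, from 0.17 to 0.64. On MOE430A 4 of 12 Slc39 probe sets were positive and 8 negative, 4 of these with a call. The largest on MOE430B was Slc39a2 (0.64 ± 0.18, SE, adjusted p = 0.160, limma). Its Ad arrays lay far above the whole embryo and its Pp arrays lay on either side of it. Without Pp replicate 3, which leaves 1 array in that group, the Slc39a2 difference was 0.73. Slc39a10 was at 1731 in the whole embryo (0.28, adjusted p = 0.451) and Slc39a5 at 754 (0.26, adjusted p = 0.680). Slc30a7 was at 562 in the whole embryo, above every fragment (-0.48, adjusted p = 0.228). Slc30a1, at 1624 in the whole embryo, gave -0.24 (adjusted p = 0.489), Slc41a1, at 77.4, gave -0.36 (adjusted p = 0.548), and Slc30a10, at 45.9, gave -0.0023 (adjusted p = 0.995).

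**Figure D4:**
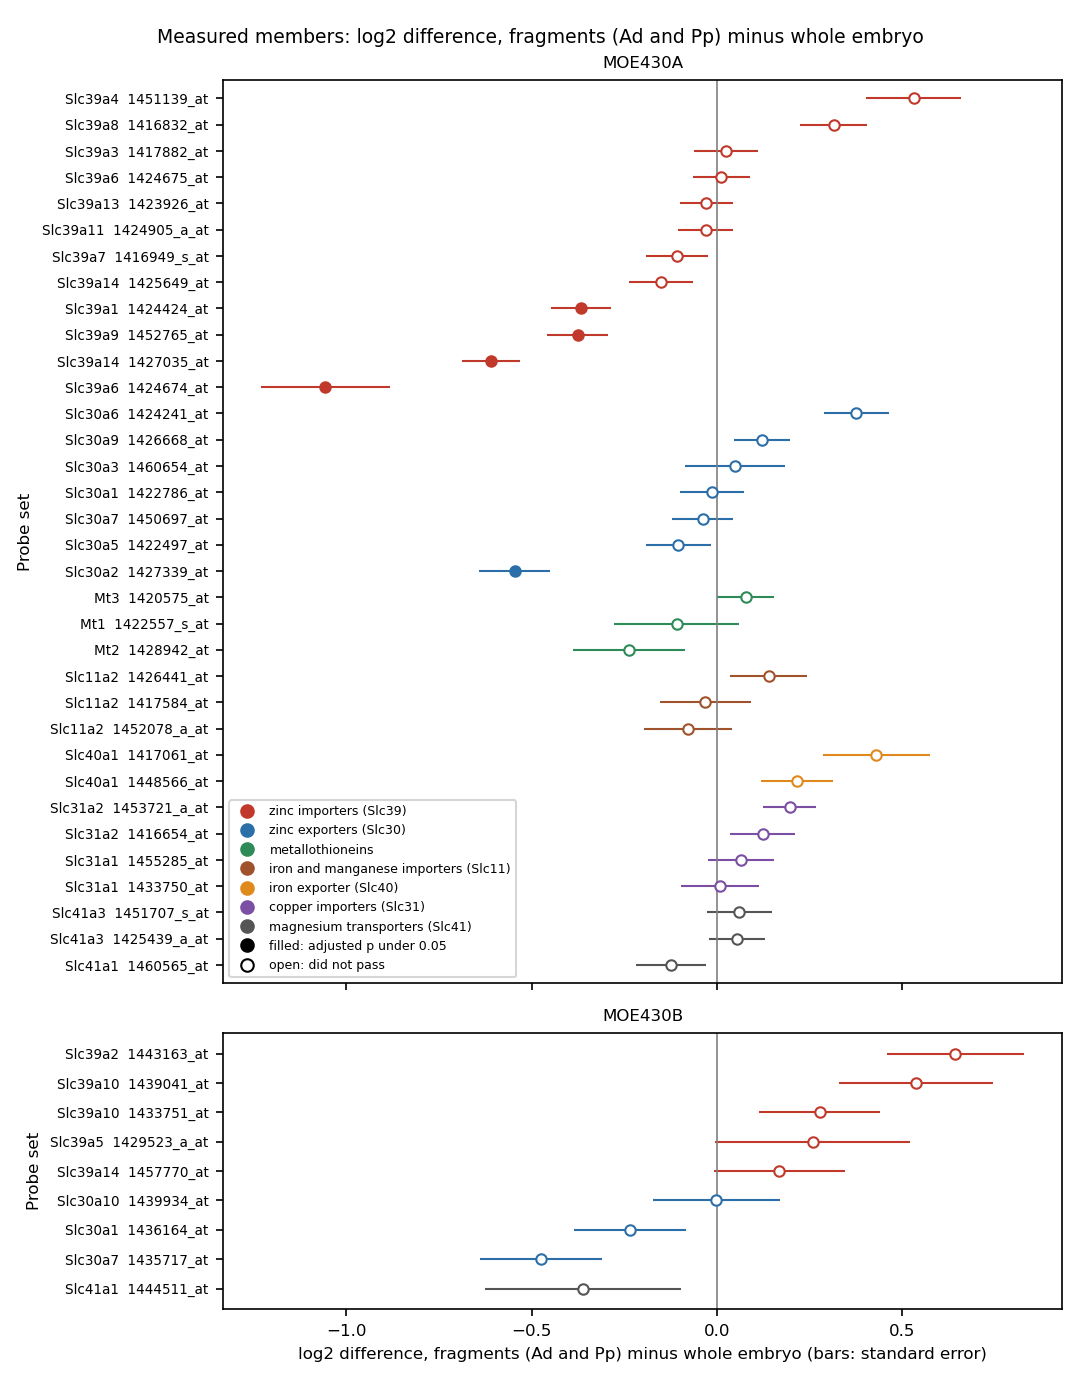
Log2 difference between the fragments (Ad and Pp) and the whole embryo (horizontal axis, bars are standard errors) for the measured member probe sets of both array types, coloured by family and filled where the adjusted p was under 0.05. The 5 filled points, from -1.06 for Slc39a6 to -0.37 for Slc39a1, all lie left of 0 and all belong to zinc transporters on MOE430A.

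The 18 probe sets below the filter were 10 on MOE430A and 8 on MOE430B, and 6 genes had no measured probe set. Mt4, a metallothionein of stratified epithelium, was at 113 and 138 in Ad and 125 and 107 in Pp, against 465 in the whole embryo. Slc30a4, which puts zinc into milk, was at 266 and 237 in Ad and 282 and 279 in Pp, against 489.5 in the whole embryo. When the filter was dropped, Mt4 (adjusted p = 0.00516) and Slc30a4 (0.0177) passed between the fragments and the whole embryo, and 7 of 44 member probe sets passed in all, beside 6.26% of all probe sets under that setting. Their fragment levels lie below the filter signal, so the size of either difference depends on the pseudocount.

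The remaining genes seen only below the filter were Slc11a1, an iron transporter of macrophage phagosomes, at 359.8 to 407 in the fragments, against 378 in the whole embryo, and Slc41a2, a magnesium transporter, at 155 to 176 in the fragments, against 203 in the whole embryo. On MOE430B Slc30a8, the exporter of insulin granules, was at 3.07 to 10.4 in the fragments, against 1.37 in the whole embryo. The 2 probe sets of Slc39a12, a zinc importer of brain, were at no more than 11.5 in the fragments, against 3.35 and 6.69 in the whole embryo. The other below-filter probe sets belong to genes that also had a measured one: Mt1, Slc39a3, Slc39a8, 2 of Slc39a9, Slc41a3, Slc11a2, Slc30a10, Slc39a14 and 2 of Slc39a6.

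Genes outside these families that handle the same metals were taken from a list of 57 genes. On MOE430A 38 were measured, by 1 probe set per gene, and 0 passed between Ad and Pp (16 positive, 22 negative, median -0.03). Mtf1 was at 818 and 759 in Ad and 774 and 824 in Pp (adjusted p = 0.668), and its brightest MOE430B probe set at 214 and 163 in Ad and 281 and 259.8 in Pp (-0.59, adjusted p = 0.423). Tfrc, the transferrin receptor, was at 3996 and 4457 in Ad and 4219 and 4122 in Pp (adjusted p = 0.818), and Fth1, the ferritin heavy chain, gave -0.03 (adjusted p = 0.892). Trf, transferrin, has no probe set annotated to it alone.

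Atp7a, a copper-exporting ATPase, was at 587 and 585 in Ad and 399 and 426 in Pp, with 635 in the whole embryo; its Pp mean lay below the filter signal and it did not pass (adjusted p = 0.302). Atp7b, its close relative, gave -0.0041 on MOE430A (adjusted p = 0.988) and 0.58 on MOE430B (adjusted p = 0.436), where it was at 334 and 362 in Ad and 174 and 271 in Pp. Against the whole embryo 1 gene of 38 passed on MOE430A. This was Atp2c2, a calcium and manganese pump of the secretory pathway, at 527 and 527 in Ad and 378 and 420 in Pp, against 798 in the whole embryo (adjusted p = 0.0221). Its fragments mean, 463, lay below the filter signal, so it was kept through the whole embryo, where it is high. Of 20 listed genes measured on MOE430B, 0 passed in either comparison, with medians of -0.0068 between Ad and Pp and -0.0040 against the whole embryo.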

How the data were processed

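RNA was linearly amplified and hybridised to Affymetrix MOE430A and MOE430B arrays, per the labels. The authors used MAS5 to turn the scans into the deposited intensity values (per the submitters' processing notes). Its version and its scaling target were not given in the sources used here. Samples were grouped by their labels. From the deposited intensities, 64 control probe sets per type were left out and a pseudocount, the 20th percentile (248 on MOE430A, 10.5 on MOE430B), was added. Log2 values were centred on each array's median, probe sets under the 40th percentile of mean log2 were removed, and limma 3.58.1 (R 4.3.3) was fitted with 3 groups per array type, leaving 2 residual degrees of freedom. Array medians were 591 to 645 on MOE430A and 56.7 to 60.99 on MOE430B, and array number limits precision. The code of the fit was checked on simulated arrays. These had the same noise at every signal level and changes larger than any measured member difference between Ad and Pp. That check therefore does not measure power or false calls in these data. Gene names came from the platform annotation. Named are members past the threshold, the 5 largest differences each way, and fixed key genes. Members and lists were chosen with earlier results of these data known. Alternatives were another pseudocount, filter, normalization and variance trend, a replicate block and leaving out each array.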

Additional observations from a re-analysis of the deposited data

How the results depend on the processing

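All settings below are limma fits. Between Ad and Pp on MOE430A, 0 members were called under every setting that kept all 4 fragment arrays, the fit on those arrays alone included, an alternative added after seeing the data; leaving out 1 array gave 0 to 3. On MOE430B the 1 member called became 0 with no filter, with no pseudocount and under quantile normalization, and 0 to 1 when an array was left out. Against the whole embryo, the 5 members called on MOE430A became 1 with a filter at the 60th percentile, which kept 21 member probe sets, 3 with the replicate block (Slc39a1, adjusted p = 0.0925, and Slc39a9, 0.0800, were not called), and 0 to 10 when an array was left out (9 without Pp replicate 1, 10 without Pp replicate 2); on MOE430B 0 became at most 1. Over all probe sets, Ad minus Pp calls were 23 on MOE430A (46 with no centring, 1 to 807 when an array was left out) and 15 on MOE430B (2 with no filter, 26 with the stricter filter, 30 with the intensity trend or larger pseudocount, 0 to 131 when an array was left out). Calls against the whole embryo were 1327 on MOE430A (865 with the replicate block, 274 to 3494 when an array was left out) and 299 on MOE430B (196 with no filter, 101 to 1180 when an array was left out). Ad and Pp arrays share replicate numbers. The deviations of same-numbered arrays had a correlation of -0.24 on MOE430A and -0.04 on MOE430B. With so few arrays this cannot tell whether same-numbered arrays share an origin, and the labels do not say. The replicate block gave 24 and 29 calls between Ad and Pp, with 19 of 23 and 15 of 15 kept.

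Differences near 0 changed sign. With no centring, Ad minus Pp log2 differences became 0.025 for Mt3, 0.036 for Slc30a1 and 0.013 for 1 Slc11a2 probe set on MOE430A, and 0.035 for Slc30a10 and 0.076 for Slc41a1 on MOE430B; fragments minus whole became -0.0023 for Mt3, -0.073 and -0.015 for the Slc31a1 probe sets and 0.0057 for Slc30a10. The first Slc31a1 probe set also became -0.032 under cyclic loess, -0.016 with the stricter filter, -0.0075 with no filter and -0.0020 under quantile normalization. Slc41a1 on MOE430B became 0.028 under cyclic loess, 0.017 with no filter, 0.018 with no pseudocount and 0.025 under quantile normalization. When an array was left out, Ad minus Pp lay within -0.052 to 0.23 and -0.061 to 0.13 for Slc40a1, -0.13 to 0.18, -0.16 to 0.045 and -0.23 to 0.025 for Slc11a2, -0.087 to 0.00032 for Mt3, -0.087 to 0.023 for Slc30a1, -0.15 to 0.072 for Slc30a10 and -0.35 to 0.35 for Slc41a1. Fragments minus whole lay within -0.11 to 0.046 for Slc11a2, -0.039 to 0.015 for Slc30a1, -0.049 to 0.066 for Slc31a1 and -0.059 to 0.055 for Slc30a10. Leaving out centring moves every difference of a comparison on an array type by the same amount. For Ad minus Pp this was 0.068 on MOE430A and 0.076 on MOE430B. For fragments minus whole it was -0.080 on MOE430A and 0.0080 on MOE430B. The cause of the other sign changes was not tested. No scaling moved the median of all probe sets by more than 0.08 on the log2 scale. Low signals on MOE430B limit what Slc30a10 and Slc41a1 can show.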
